A study of Mus musculus with 6 samples.

Results

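Sterol and fatty acid synthesis genes were followed in mouse chemically induced cardiovascular progenitor cells (ciCPCs) at an early and a late passage. The set was a fixed list of 33 genes, and all 33 were found by symbol among 53801 genes in the count files: 18 enzymes of the sterol pathway, 6 genes of sterol handling and SREBP control, and 9 of fatty acid synthesis. The list does not cover every step of these pathways. Per the labels these cells are wild type cardiac progenitors, from a strain that mixes C57BL/6 with 129J/SvE, and were passaged after colonies had been picked on day 14 of cardiac reprogramming. Both groups grew with BMP4, Activin A, CHIR99021 (a glycogen synthase kinase inhibitor that activates Wnt signalling) and SU5402 (an FGF receptor inhibitor). RNA was sequenced from 3 libraries at passage 3 and 3 at passage 20, to ask how the cells differ after long expansion. Whether replicates were separate cultures, and whether both passages descend from the same colonies, is not in the labels. The p-values therefore reflect the spread of 3 libraries a group, which may be technical.

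Cells build cholesterol from acetyl-CoA through mevalonate, isoprenoid diphosphates, squalene and lanosterol, and build fatty acids from the same acetyl-CoA through malonyl-CoA. Transcription of both routes is governed by the sterol regulatory element-binding proteins (SREBPs). These are made as membrane precursors, escorted from the endoplasmic reticulum by SCAP when sterols are low, held there by INSIG proteins when sterols are high, and released as transcription factors by proteases of the Golgi. Proliferating cells use both routes to make membranes.

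Promoters of many SREBP target genes are known for sites of SREBP together with NF-Y, which binds CCAAT boxes, and Sp1. RefSeq promoters of GRCm38.p6 were matched by symbol for 26 of the 33 members, and the 250 bases before each start were read on both strands. The sterol response element core TCACNCCAC (reverse GTGGNGTGA) occurred in 1 of the 26, Hmgcs1, against 1.22% of 27025 genes. A CCAAT box (CCAAT or ATTGG) occurred in 14 of 15 sterol pathway members, in 4 of 5 sterol handling and control members and in 2 of 6 fatty acid members, against 37.5% of all genes and 40.4% of the tested genes with a promoter. The Sp1 box GGGCGG (reverse CCGCCC) occurred in 14 of 15, 5 of 5 and 3 of 6, against 35.4% of all genes and 64.1% of tested genes. These are matches of letters, not measured binding. The stretches below belong to Hmgcs1, the member with the sterol response element core, and to Mvk, the sterol enzyme gene that fell. Those of Mvd, Lss and Insig1 are also shown, picked by no rule from the 29 members that rose. The number of boxes was not tested against the direction of change. Capitals mark CCAAT boxes in either direction and, in Hmgcs1, the core TCACCCCAC. Bases inside annotated exons were left out, each stretch was cut to at most 200 bases, and each reads toward the gene. The 250-base window of Hmgcs1 held 3 CCAAT boxes, of which 2 lie in the stretch shown.
Hmgcs1 (chr13:119690151-119690350, plus strand, 2 CCAAT boxes): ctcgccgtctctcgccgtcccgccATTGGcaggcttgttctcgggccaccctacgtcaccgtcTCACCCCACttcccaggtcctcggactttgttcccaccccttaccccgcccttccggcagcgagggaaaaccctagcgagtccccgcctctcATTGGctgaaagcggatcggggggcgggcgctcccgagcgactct
Mvk (chr5:114444069-114444268, plus strand, 5 CCAAT boxes): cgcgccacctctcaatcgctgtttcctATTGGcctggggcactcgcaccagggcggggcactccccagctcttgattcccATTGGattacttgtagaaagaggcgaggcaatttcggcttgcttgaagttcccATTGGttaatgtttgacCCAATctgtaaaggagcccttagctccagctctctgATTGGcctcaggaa
Mvd (chr8:122443423-122443622, minus strand, 2 CCAAT boxes): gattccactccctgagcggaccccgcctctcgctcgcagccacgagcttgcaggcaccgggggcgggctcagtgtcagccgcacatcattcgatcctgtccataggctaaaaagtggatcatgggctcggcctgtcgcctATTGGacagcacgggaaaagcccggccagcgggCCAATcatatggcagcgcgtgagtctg
Lss (chr10:76531388-76531587, plus strand, 1 CCAAT box): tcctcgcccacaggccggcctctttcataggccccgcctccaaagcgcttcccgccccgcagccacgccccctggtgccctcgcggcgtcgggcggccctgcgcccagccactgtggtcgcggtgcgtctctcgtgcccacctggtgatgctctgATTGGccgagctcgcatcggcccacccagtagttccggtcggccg
Insig1 (chr5:28071163-28071362, plus strand, 1 CCAAT box): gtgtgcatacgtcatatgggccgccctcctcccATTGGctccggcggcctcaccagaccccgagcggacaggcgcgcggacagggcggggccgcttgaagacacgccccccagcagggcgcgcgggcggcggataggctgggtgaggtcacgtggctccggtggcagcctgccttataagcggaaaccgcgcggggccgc

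Libraries held 11387738 to 17721788 counts in genes. Levels are given as CPM, the read counts scaled to library size with TMM factors, which adjust for differences in composition. A gene is called when its adjusted p is under 0.05 in the quasi-likelihood test of edgeR, with Benjamini-Hochberg adjustment over all 15143 genes tested, and all 33 members were among those tested. The passages differed broadly: 74.3% of tested genes were called, 37.0% higher and 37.3% lower at passage 20. Scaling to library size alone shifted the median over all genes from -0.01 to -0.34 on the log2 scale. It also changed the split of calls from 5604 higher and 5641 lower to 3528 and 8273, so small changes are relative to the scaling. Passage 20 replicate 3 stood apart: the chi-square per degree of freedom against the other two passage 20 libraries was 10.6 and 8.72, against 2.04 between those and 1.75 to 2.63 among the passage 3 libraries. No library pair agreed within sampling noise. Passage is not separable in this design from harvest or library preparation, which the labels do not describe.

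Of the 33 members, 29 rose, 1 fell and 3 were not called. By class, 17 of 18 sterol pathway genes rose and 1 fell, 5 of 6 handling and control genes rose, and 7 of 9 fatty acid genes rose. At least 2-fold rises were called for 13, 4 and 5 genes of the classes, together 22 of 33, against 13.4% of all genes tested. The median log2 fold change was 1.40 in the sterol pathway, 1.61 in handling and control and 1.15 in fatty acid synthesis, against -0.01 over all genes. The CPM of the passages did not overlap in 30 of the 33 members, against 77.5% of all genes. All 33 members kept their call when any library was left out, passage 20 replicate 3 included, and the 30 called members also kept their direction.

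**Figure D1:**
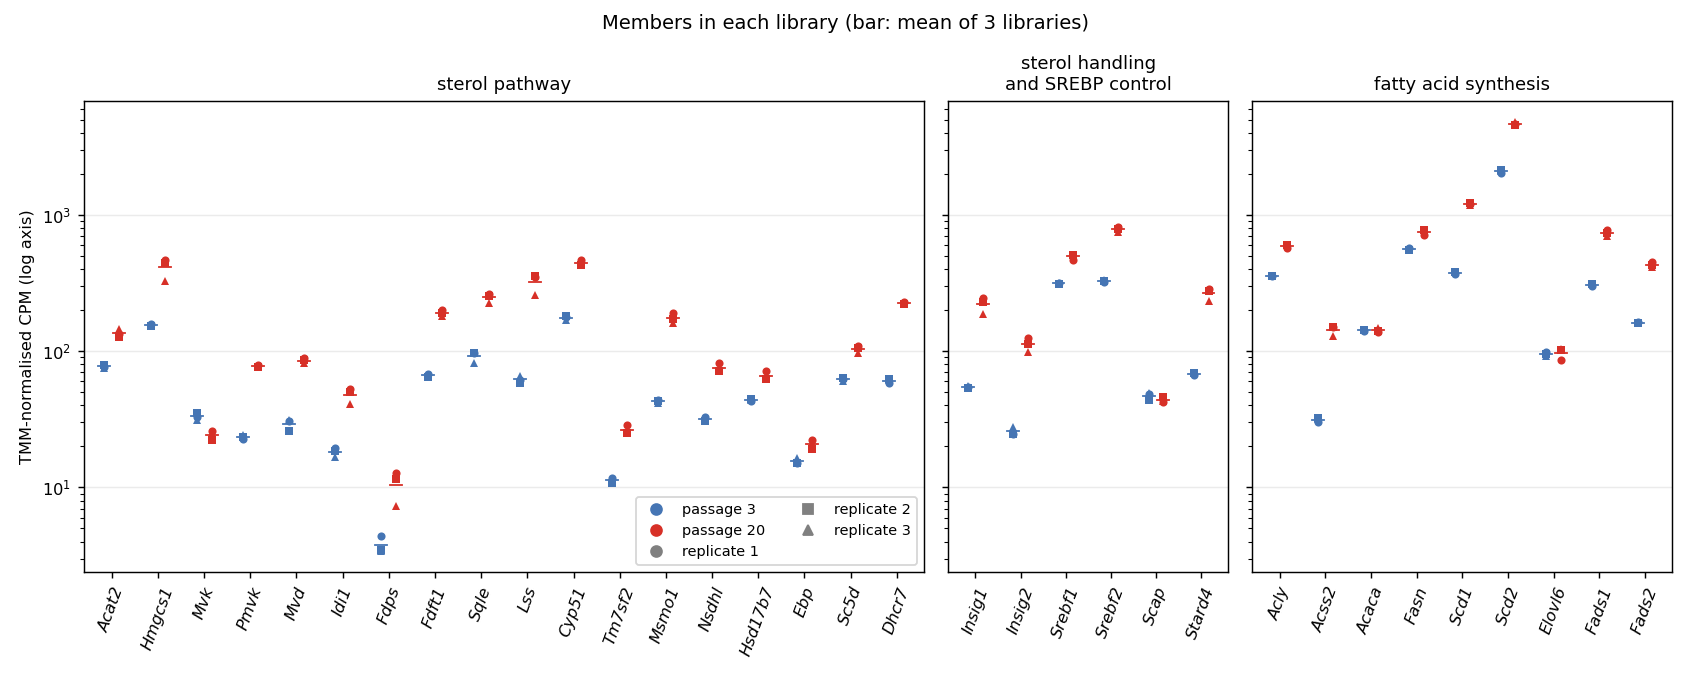
TMM-normalised CPM (log axis) of each member in the 3 passage 3 libraries (blue) and the 3 passage 20 libraries (red), with marker shape for the replicate number and a short bar for the mean of 3. Red points lie above blue ones in 29 members, below them in Mvk, and mingle with them in Scap, Acaca and Elovl6.

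Shares of all gene counts use no TMM factors, but they scale each library to its own total, as library sizes only does. The 33 members together took 0.666%, 0.670% and 0.666% at passage 3 and 1.18%, 1.18% and 1.20% at passage 20. The sterol pathway took 0.114%, 0.113% and 0.110% and then 0.251%, 0.240% and 0.226%. Fatty acid synthesis took 0.461% ± 0.00357 (SD, n = 3) and 0.780% ± 0.0255 (SD, n = 3). Much of this was Scd2: without it the class took 0.227% ± 0.00198 and 0.365% ± 0.00726 (SD, n = 3). All members without Scd2 took a mean of 0.433% and 0.774%. Each class thus took a larger share of the counts in every passage 20 library than in any at passage 3.

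The first steps turn acetyl-CoA into mevalonate and isoprenoid diphosphates. Hmgcs1 (ENSMUSG00000093930, GRCm38 chromosome 13, 119690379 to 119708260), which makes HMG-CoA, was at 157, 154 and 153 CPM at passage 3 and at 468, 440.3 and 328 CPM at passage 20. It rose 2.66-fold (log2 1.41, SE 0.12, adjusted p = 1.28e-05 in edgeR), and passage 20 replicate 3 was the lowest of its group. Acat2, a cytosolic acetoacetyl-CoA thiolase ahead of it, rose 1.76-fold. Pmvk, phosphomevalonate kinase, stood at 22.5, 23.4 and 24.4 CPM and then at 79.2, 76.9 and 76.8 CPM, a 3.31-fold rise (log2 1.73, SE 0.07, adjusted p = 2.32e-09 in edgeR). Mvd, the decarboxylase that follows it, went from 29.3 ± 2.90 to 85.3 ± 3.86 CPM (SD, n = 3) and rose 2.91-fold.

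Mvk, mevalonate kinase, lies between Hmgcs1 and Pmvk in the pathway and was the member that fell. Its CPM was 33.01, 35.2 and 31.3 at passage 3 and 25.8, 22.2 and 25.2 at passage 20. The groups did not overlap, and the fall was 1.36-fold (log2 -0.44, SE 0.09, adjusted p = 0.000696 in edgeR). Idi1, the isopentenyl diphosphate isomerase, rose 2.62-fold from 18.2 ± 1.42 to 47.8 ± 6.35 CPM (SD, n = 3). Fdps, farnesyl diphosphate synthase, stood at 4.43, 3.45 and 3.44 CPM and then at 12.8, 11.4 and 7.32 CPM. It rose 2.77-fold (log2 1.47, and 1.67 without passage 20 replicate 3) and had the lowest level per kilobase of exon of all members, 0.897 and 2.50 CPM per kilobase. Fdps shares 26.7% of its exon bases with Gm43738 on the same strand, a gene with 0 counts, so its level is uncertain.

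The squalene steps are the first that lead to sterols alone. Fdft1, squalene synthase, rose 2.87-fold from 66.4 ± 2.15 to 191 ± 9.77 CPM (SD, n = 3). Sqle, squalene epoxidase, a controlled oxygen-dependent step, was at 96.3, 96.8 and 82.4 CPM and then at 264, 255 and 225 CPM, a 2.70-fold rise (log2 1.43, SE 0.08, adjusted p = 5.19e-08 in edgeR). Lss (ENSMUSG00000033105, chromosome 10, 76531588 to 76557138), lanosterol synthase, which closes the sterol rings, had the highest fold change of the 33 members. It was at 61.6, 58.8 and 66.1 CPM at passage 3 and at 349, 355 and 258 CPM at passage 20, so the third late library lay well below the other two and still far above every early one. The rise was 5.15-fold (log2 2.36, SE 0.12, adjusted p = 4.7e-07 in edgeR), with log2 2.48 without that library. Fdft1 overlaps Ctsb on the opposite strand over 774 exon bases, and Ctsb had 4.87 times as many counts. Without a known strand setting for the counting, reads of the pair may not have been told apart, so the value of Fdft1 is uncertain.

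After lanosterol, methyl groups are removed and the rings are reshaped, and all 8 members of these steps rose. Cyp51, lanosterol demethylase, rose 2.53-fold from 175 ± 6.31 to 442 ± 20.6 CPM (SD, n = 3) and had the highest level per kilobase of the sterol pathway at passage 20, 100.2 CPM per kilobase. Msmo1, the methylsterol monooxygenase, was at 43.7, 43.2 and 41.6 CPM and then at 191, 172 and 161 CPM, and rose 4.08-fold (log2 2.03, SE 0.07, adjusted p = 1.28e-09 in edgeR). Nsdhl, a dehydrogenase of the same demethylation, rose 2.36-fold, and Tm7sf2, a sterol reductase, rose 2.33-fold from 11.4 ± 0.541 to 26.6 ± 2.01 CPM (SD, n = 3).

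The members with the smallest rises of the pathway were Hsd17b7, a keto-sterol reductase, at 1.499-fold, Ebp, a sterol isomerase, at 1.35-fold, and Sc5d, a sterol desaturase, at 1.67-fold. Ebp stood at 15.1, 15.2 and 16.4 CPM and then at 22.4, 19.3 and 21.3 CPM. Its rise (log2 0.43, SE 0.09, adjusted p = 0.00137 in edgeR) did not pass with library sizes only, where it was 0.10 (adjusted p = 0.345 in edgeR). Dhcr7, a dehydrocholesterol reductase at the end of the pathway, was at 58.1, 62.5 and 61.8 CPM and then at 229, 223 and 224 CPM. Its late libraries lay close together, replicate 3 included, and the rise was 3.70-fold (log2 1.89, SE 0.05, adjusted p = 3.88e-10 in edgeR).

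**Figure D2:**
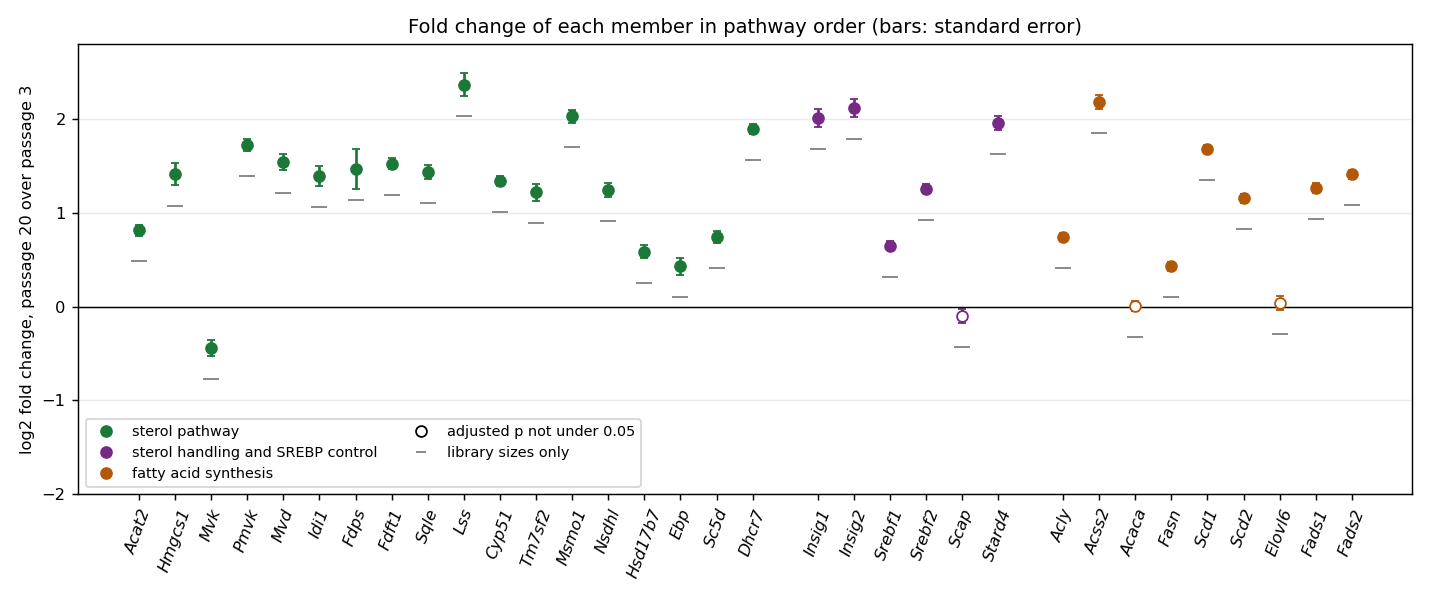
Log2 fold change of passage 20 over passage 3 for each member in pathway order (vertical axis, circles, with bars for the standard error), coloured by class, open where the adjusted p was not under 0.05, and with a grey dash for the value with library sizes only. Values run from -0.44 for Mvk to 2.36 for Lss, and grey dashes lie about 0.33 below the circles throughout.

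The genes that hold SREBPs back and the sterol carrier gene rose too. Insig1 (ENSMUSG00000045294, chromosome 5, 28071363 to 28078662), an endoplasmic reticulum anchor of SCAP and itself a known SREBP target, was at 54.4, 53.7 and 55.3 CPM and then at 244, 230.2 and 186 CPM. It rose 4.04-fold (log2 2.01, SE 0.09, adjusted p = 3.55e-08 in edgeR). Insig2, the second anchor, was at 24.8, 24.5 and 27.9 CPM and then at 125, 113 and 98.3 CPM, a 4.33-fold rise (log2 2.12, SE 0.09, adjusted p = 8.53e-09 in edgeR). In both genes passage 20 replicate 3 was the lowest late library, and no late library came near an early one. Stard4, a carrier of cholesterol through the cytosol, rose 3.89-fold from 68.2 ± 1.65 to 265 ± 28.1 CPM (SD, n = 3).

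The SREBP genes themselves rose less than these. Srebf2 (ENSMUSG00000022463, chromosome 15, 82147181 to 82205379), whose product mainly drives sterol genes, was at 320.4, 328 and 333 CPM and then at 814, 781 and 749 CPM, 2.39-fold higher (log2 1.26, SE 0.05, adjusted p = 3.32e-09 in edgeR). Srebf1, whose products mainly drive fatty acid genes, was at 317, 313 and 316 CPM and then at 465, 511 and 508 CPM, 1.57-fold higher (log2 0.65, SE 0.05, adjusted p = 6.05e-07 in edgeR). Per kilobase of exon, Srebf1 stood at 56.0 and Srebf2 at 45.5 CPM per kilobase at passage 3, and at 87.8 and 109 at passage 20. Their order turned by this measure only, which depends on the merged exon lengths. In CPM, Srebf1 was below Srebf2 in every library. Scap, the escort, was at 48.3, 43.6 and 49.1 CPM and at 42.6, 46.3 and 42.8 CPM, and was not called (log2 -0.10, SE 0.07, adjusted p = 0.234 in edgeR). With library sizes only it was -0.43 and called lower, against a median of -0.34 over all genes. Srebf1 overlaps Rai1 on the opposite strand over 109 exon bases, 1.93% of its own.

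Fatty acid synthesis starts from cytosolic acetyl-CoA, which ATP citrate lyase (Acly) makes from citrate and Acss2 makes from acetate. Acss2 (ENSMUSG00000027605, chromosome 2, 155517948 to 155585724) was at 30.2, 32.6 and 31.6 CPM and then at 151, 149.9 and 129 CPM. It rose 4.55-fold (log2 2.18, SE 0.08, adjusted p = 1.27e-09 in edgeR), the highest fold change of the class. Acly rose 1.67-fold from 355 ± 0.594 to 593 ± 15.99 CPM (SD, n = 3) and was still the more abundant of the pair, at 112 against 14.1 CPM per kilobase at passage 20. Acss2 overlaps Gss and Ggt7 on the opposite strand over 395 and 197 of its exon bases, and these had 0.35 and 0.30 times its counts.

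The enzymes of chain synthesis moved little. Acaca, acetyl-CoA carboxylase, which makes malonyl-CoA, was at 141, 144 and 142 CPM and then at 139, 141 and 148 CPM (log2 0.00, SE 0.05, adjusted p = 0.933 in edgeR). Fasn, the fatty acid synthase, was at 575, 548 and 555 CPM and then at 714, 777 and 768 CPM, 1.35-fold higher (log2 0.43, SE 0.05, adjusted p = 1.69e-05 in edgeR), and 0.10 with library sizes only (adjusted p = 0.105 in edgeR). Elovl6, which lengthens palmitate, was at 98.1, 94.6 and 91.8 CPM and then at 86.4, 102 and 104 CPM (log2 0.04, SE 0.07, adjusted p = 0.641 in edgeR). With library sizes only, Acaca and Elovl6 turned to -0.33 and -0.29 and were called lower, values close to the shifted median of all genes. Without passage 20 replicate 3 they were at -0.04 and -0.03 and not called, so neither has a settled direction.

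All 4 genes that put double bonds into fatty acids rose. Scd2 (ENSMUSG00000025203, chromosome 19, 44293674 to 44306864), a stearoyl-CoA desaturase, was at 2027, 2147 and 2108 CPM and then at 4629, 4568 and 4777 CPM, 2.22-fold higher (log2 1.15, SE 0.05, adjusted p = 6.36e-09 in edgeR). At 383 and 853 CPM per kilobase it had the highest level of the 33 members at both passages. Scd1, its neighbour and paralog, was at 368, 379 and 378 CPM and then at 1204, 1220 and 1186 CPM, 3.21-fold higher (log2 1.68, SE 0.05, adjusted p = 3.59e-10 in edgeR). Fads1 and Fads2, desaturases of long polyunsaturated chains, rose 2.40-fold from 306 ± 4.90 to 735 ± 37.7 CPM and 2.66-fold from 162 ± 2.20 to 431 ± 17.4 CPM (SD, n = 3). Of the 50-base words in Scd1 transcripts, 4.56% also occur in other genes, Scd2 among them.

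Ratios of paired members inside a library do not depend on scaling. The log2 ratio of Acly to Acss2 counts was 3.55, 3.44 and 3.49 at passage 3 and 1.93, 2.00 and 2.23 at passage 20, a fall by 1.44. Srebf1 to Srebf2 was -0.02, -0.07 and -0.07 and then -0.81, -0.61 and -0.56, a fall by 0.61. Scd1 to Scd2 was -2.46, -2.50 and -2.48 and then -1.94, -1.91 and -2.01, higher by 0.53. These 3 ratios and that of Fads1 to Fads2 (0.92 ± 0.042 and 0.77 ± 0.018, SD, n = 3) did not overlap between passages, whereas Insig1 to Insig2 did (1.08 ± 0.085 and 0.97 ± 0.056, SD, n = 3). In two-sided exact permutation tests the first 4 had p = 0.1, the smallest that 3 libraries against 3 allow, and Insig1 to Insig2 had p = 0.2. Adjusted over the 5 pairs these were 0.125 and 0.2, so none passed 0.05 in this design.

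**Figure D3:**
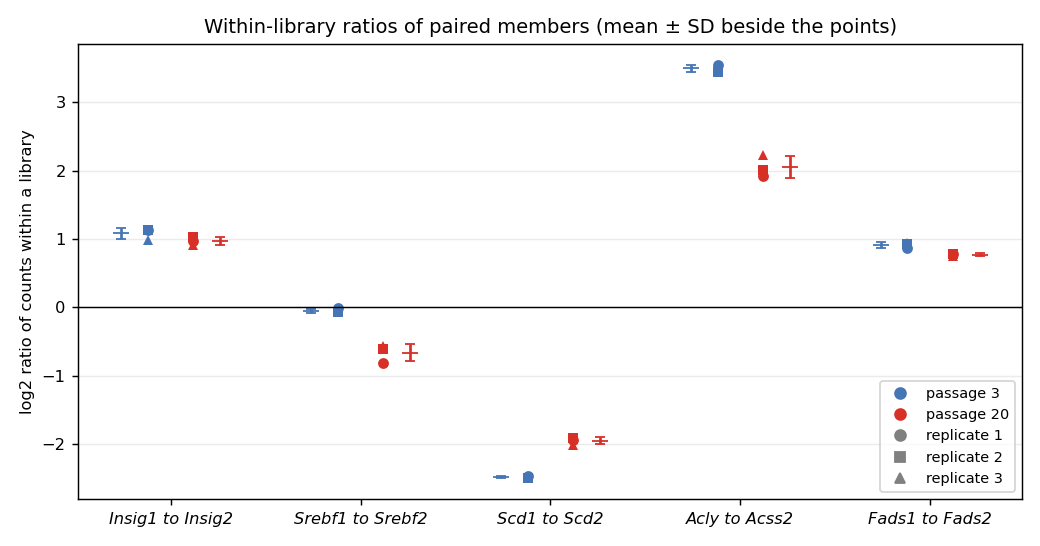
Log2 ratio of counts within each library for 5 pairs of members, at passage 3 (blue) and passage 20 (red), with points for the libraries and mean ± SD of 3 libraries beside them. The Acly to Acss2 ratio fell by 1.44 between passages, and the Insig1 to Insig2 ratios overlap.

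The library that stood apart lay differently in the 3 classes, which was not tested. Passage 20 replicate 3 was the lowest of its group in 10 of 18 sterol pathway genes and in 4 of 6 handling and control genes, and was the highest in 1 and 0 of them. In fatty acid synthesis it was the lowest in 4 of 9 and the highest in 4, and over all genes tested it was the lowest in 39.7% and the highest in 39.5%. Its CPM relative to the mean of the other two ran from 0.605 for Fdps, 0.721 for Hmgcs1 and 0.733 for Lss to 1.11 for Acat2. Without it the class medians were 1.49, 1.65 and 1.12 on the log2 scale.

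The other genes of these routes did not all move with the members. Their counts are to be read against the 37.0% of all tested genes called higher and the 37.3% called lower. All 8 genes that process SREBPs or degrade sterol-regulated proteins were lower at passage 20, by small amounts (log2 -0.58 to -0.15). With DESeq2, without passage 3 replicate 2 and without passage 20 replicate 1, 7 of the 8 were called lower. Rnf139, a ubiquitin ligase gene, fell from 28.8 ± 0.534 to 19.2 ± 0.397 CPM, and Mbtps1, the site-1 protease that cuts SREBPs, fell from 215 ± 6.36 to 165 ± 10.2 CPM (SD, n = 3). Of 15 genes of sterol efflux, storage and oxysterols, 8 rose and 4 fell (7 and 5 with library sizes only). Scarb1, a lipoprotein receptor gene, rose 5.92-fold from 59.9 ± 3.27 to 355 ± 40.2 CPM, and Lrp1, another lipoprotein receptor gene, rose 2.00-fold. The cholesterol exporter genes Abca1 and Abcg1 fell from 109 ± 1.51 to 25.9 ± 4.61 CPM and from 14.3 ± 1.62 to 4.54 ± 1.08 CPM (SD, n = 3; log2 -2.07 and -1.68). The other two that fell, named after their values were seen, were Mylip, a ubiquitin ligase gene, 1.99-fold lower, and Nr1h3, an oxysterol receptor gene, from 1.67 ± 0.440 to 0.786 ± 0.287 CPM (SD, n = 3). Nr1h2, the other oxysterol receptor gene of the list, was far more abundant and went from 58.8 ± 2.49 to 71.0 ± 5.43 CPM (SD, n = 3; log2 0.27, called higher, and -0.06 with library sizes only).

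Of 12 isoprenoid branch genes, 5 rose and 4 fell, shares near those of all genes, and with library sizes only 1 rose and 7 fell. Fntb, the farnesyltransferase beta subunit, rose from 38.4 ± 2.98 to 91.6 ± 0.952 CPM, and Pggt1b, a subunit of another protein prenyltransferase, fell from 27.3 ± 0.388 to 15.3 ± 2.57 CPM (SD, n = 3). Fnta, the alpha subunit, was at log2 0.32 and called higher, but at -0.01 with library sizes only. Pdss1 fell with log2 -0.94. Of 23 tested genes of further fatty acid synthesis, elongation and activation, 14 rose and 5 fell. Me1, malic enzyme, a source of NADPH, rose 2.38-fold from 227 ± 10.6 to 541 ± 15.7 CPM, and Acsl4, an acyl-CoA synthetase, rose 2.73-fold from 42.9 ± 1.80 to 117 ± 4.83 CPM (SD, n = 3). Hacd3, a dehydratase of chain elongation, fell from 116 ± 2.25 to 69.96 ± 1.52 CPM, and Oxsm, of mitochondrial fatty acid synthesis, from 11.1 ± 0.871 to 5.40 ± 1.41 CPM (SD, n = 3).

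**Figure D4:**
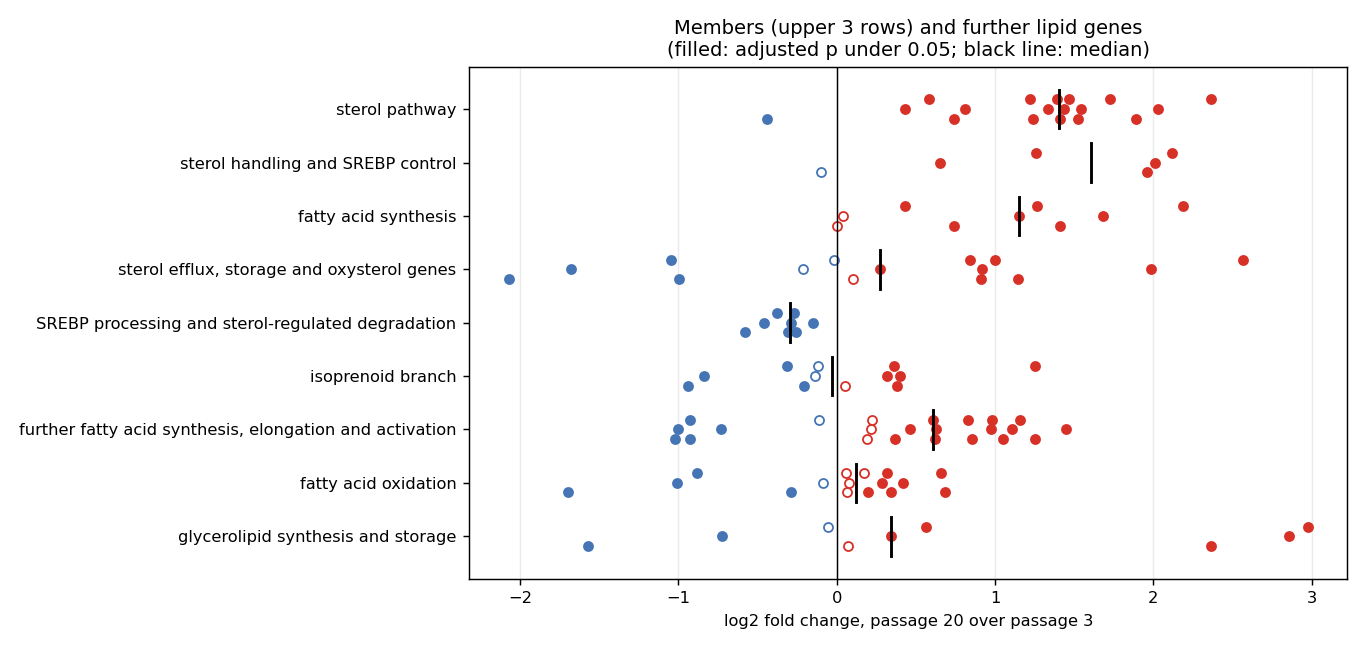
Log2 fold change of passage 20 over passage 3 (horizontal axis) for the tested genes of the member classes and of 6 further lipid lists, one point per gene, red above 0 and blue below, filled where the adjusted p was under 0.05, with a black line for the list median. The medians run from 1.61 for sterol handling and SREBP control to -0.30 for SREBP processing.

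Markers of other cell types were read beside these results, since in bulk RNA a change in the share of a cell type and a change in RNA per cell are not separable. The 12 cardiac progenitor markers were all detected, with 7 higher, 5 lower and a summed level of 995 to 1026 CPM at passage 3 and 923 to 1047 CPM at passage 20. Their changes ran from log2 -3.08 for Isl1, which fell from 63.2 ± 5.72 to 7.45 ± 0.534 CPM, to log2 3.81 for Mesp1, which rose from 0.146 ± 0.0968 to 2.23 ± 0.920 CPM (SD, n = 3). Nkx2-5 rose 4.57-fold and Mef2c 2.68-fold, and Gata4, Gata6, Hand1 and Hand2 rose with log2 0.24 to 1.08. Pdgfra fell from 328 ± 7.01 to 134 ± 0.744 CPM (SD, n = 3; log2 -1.29). Tbx5, Tbx20 and Kdr fell too, with log2 -0.73, -0.44 and -0.28. Over all tested genes, 37.0% were called higher and 37.3% lower. Fibroblast markers rose in 6 of 8 genes and fell in 2, and 5 rose with library sizes only. Their sum went from a range of 13560.4 to 14279 CPM to one of 28052 to 33348 CPM. It was mostly Col1a1, Col1a2 and Col3a1, with means of 4353, 3889 and 3675 CPM and then 12540, 6098 and 9378 CPM. Thy1 fell from 13.1 ± 0.190 to 5.64 ± 1.68 CPM and Pdgfrb from 172 ± 8.12 to 107 ± 11.7 CPM (SD, n = 3). The sum moved in the same direction as the members, and its part in the result was not tested. Of 8 adipocyte markers, 6 were under 1 CPM in both groups and Lep was at 0, while Fabp4 rose from 0.826 ± 0.240 to 12.9 ± 2.46 CPM (SD, n = 3). Cebpa, the other adipocyte marker tested, was at 2.62 ± 0.409 and then at 2.17 ± 0.756 CPM (SD, n = 3; log2 -0.23, not called). The summed level of the adipocyte markers was 3.89 to 4.62 CPM and then 15.3 to 19.2 CPM, a rise carried mostly by Fabp4. The part of these in the result was not tested. Markers of hepatocytes summed to at most 1.67 CPM in any library, with Serpina1a at 0. Those of steroid-producing cells summed to 5.96 to 6.84 CPM and then 1.89 to 2.14 CPM. Most of that sum was Star, which fell from 5.91 ± 0.529 to 1.63 ± 0.125 CPM (SD, n = 3), and the other 4 were under 1 CPM in both groups. Macrophage markers summed to 7.99 to 9.63 CPM and then 9.55 to 11.9 CPM, with Ptprc at 0. Csf1r rose from 3.09 ± 0.344 to 4.68 ± 0.465 CPM (SD, n = 3), and Cd68 and Lyz2 were not called. With library sizes only, none of these markers was called.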

How the data were processed

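Per the labels, libraries were made from column-purified, DNase-treated total RNA with a standard Illumina method. HISAT2 2.0.5, SAMtools, HTSeq and DESeq2 appear with GRCm38 in the submitters' processing notes, in no stated role. The annotation release and strandedness of counting were not known here. Whole-number gene counts from each library, as deposited by the authors, were the values used. Their normalised values were not used, nor were the tables of the whole series, which hold the same values as the files of single libraries. Columns of another series numbered 0.

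Symbols, positions and merged exon lengths came from GENCODE M21 (GRCm38), which matched 53706 of 53801 gene identifiers, and the other 95 held 0.00623% of counts. After filterByExpr, TMM factors were 1.12 to 1.13 for passage 3 and 0.873 to 0.917 for passage 20. The robust quasi-likelihood test of edgeR 4.0.16 (R 4.3.3) was checked on simulated data. The common biological coefficient of variation was 7.05%, and 3.43% without passage 20 replicate 3. Ratios of members had 0.5 added to each count and exact permutation tests in SciPy 1.17.1. Alternatives were RLE factors, scaling to library size alone, limma-voom (limma 3.58.1), DESeq2 1.42.0, no filter, a filter of 1 CPM in 3 libraries, a threshold of 0.01, each library left out, a replicate block and 5 counts added in ratios.

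The members, the further lists, the markers and the tests were chosen with earlier results of these data known. All members are named. From each further list, up to 2 genes per direction with the smallest adjusted p are named. A gene that this rule names in the fatty acid oxidation list is not reported here.

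Exons of Cyp51 overlap Akap9 on the opposite strand, and those of Tm7sf2 overlap Vps51 on the same strand. Of the 50-base words in transcripts, 39.1% in Acat2 (Acat3), 30.4% in Acaca, 26.2% in Fdps and 17.7% in Idi1 also occur in other genes. In Tm7sf2 it was 9.87% and in Fdft1 9.38%, so the levels of these 6 genes are uncertain. Depth per library is given with the results, and precision covers counting error and the spread of 3 libraries.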

Additional observations from a re-analysis of the deposited data

How the results depend on the processing

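All 33 members kept their call, and the 30 called members their direction, with RLE factors, DESeq2, limma-voom, both other low-count filters, a threshold of 0.01, a replicate block and each library left out. Acaca, never called in these settings, changed sign without the filter, without passage 3 replicate 1 or 3 and without passage 20 replicate 3, and Elovl6 without that last library (-0.04 to -0.01 and -0.03). Library sizes only was the setting that changed calls. There 3528 genes were higher over all genes tested, 1 member of sterol handling and SREBP control (Scap, log2 -0.43) and 2 of fatty acid synthesis (Acaca, log2 -0.33, and Elovl6, log2 -0.29) were called lower, and Ebp (0.10) and Fasn (0.10) no longer passed. This setting moved the log2 fold change of each member by about the shift of the median of all genes, to -0.34. No member moved by over 1.5-fold under any setting. The replicate numbers of the labels did not pair the libraries: deviations of same-numbered libraries correlated with r = 0.01, -0.03 and 0.05. The fit with a replicate block called 5521 genes higher and 5582 lower. Leaving out passage 20 replicate 3, the library that stood apart, gave 6103 higher and 6266 lower. Each of the 5 ratio differences kept its sign with 5 counts added or a library left out. Fdps had the fewest counts of the members, 194 at passage 3 and 333 at passage 20, and the largest SE, 0.21 on the log2 scale. That SE also holds the spread of its late libraries, where replicate 3 was at 0.605 times the mean of replicates 1 and 2. In ratios, 3 libraries per passage allow no p under 0.1.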

Other observations

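Of 16 genes of fatty acid oxidation, 7 rose and 4 fell, against 37.0% of all tested genes called higher and 37.3% lower, and with library sizes only 2 rose and 8 fell. Acadl, a mitochondrial acyl-CoA dehydrogenase, rose from 63.6 ± 2.52 to 100.3 ± 3.24 CPM (SD, n = 3). Cpt1a, which admits fatty acids to mitochondria, fell from 95.4 ± 3.30 to 51.8 ± 2.56 CPM, and Ehhadh, of peroxisomes, from 8.90 ± 0.357 to 4.37 ± 1.21 CPM (SD, n = 3).

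Among 9 genes of glycerolipid synthesis and storage, 5 rose and 2 fell, against 37.0% of all tested genes called higher and 37.3% lower. With library sizes only 3 rose and 4 fell, against 3528 higher and 8273 lower of all 15143 tested genes. Hilpda, a lipid droplet protein gene known to respond to hypoxia, rose 7.85-fold from 10.1 ± 1.26 to 79.2 ± 5.46 CPM, and Lpin1, a phosphatidate phosphatase, rose 7.23-fold from 8.55 ± 1.11 to 62.0 ± 2.99 CPM (SD, n = 3). Mgll, monoacylglycerol lipase, fell from 151 ± 4.67 to 50.6 ± 2.52 CPM and Dgat1, a triglyceride synthase gene, from 24.4 ± 1.99 to 14.8 ± 1.65 CPM (SD, n = 3). Dgat2, the other triglyceride synthase gene of the list, named after its value was seen, rose 5.14-fold from 12.4 ± 1.39 to 64.0 ± 1.53 CPM (SD, n = 3). These genes passed the test of edgeR with adjusted p under 0.05 over all genes.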
